A study of Homo sapiens with 8 samples.

Results

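The regions described here are 5 intervals of the human genome that hold the chemokine and interleukin-1 gene clusters, cut into 330 windows of 5 kb out of 607271 such windows on chromosomes 1 to 22 and X. They were chosen by position alone, in GRCh37: chromosome 4 from 74550001 to 75000000 (90 windows) and from 76850001 to 77000000 (30 windows) for the CXCL genes, chromosome 17 from 32550001 to 32700000 (30 windows) and from 34150001 to 34650000 (100 windows) for the CCL genes, and chromosome 2 from 113500001 to 113900000 (80 windows) for the interleukin-1 (IL1) family. They are called CXCL intervals 1 and 2, CCL intervals 1 and 2 and the IL1 interval. The study mapped the histone mark H3K27me3 by chromatin immunoprecipitation and sequencing in MOLM14, a human line grown from an acute myeloid leukaemia with an activating internal duplication in the receptor kinase gene FLT3. Cells received either the solvent DMSO or AC220 (quizartinib), an inhibitor of that kinase, for 24 h, and the design text says that cells of the Drosophila line S2 were added as a spike-in for normalization. Each treatment has 2 immunoprecipitated libraries, numbered 1 and 2, with 1 deposited list of broad peaks each, and 4 input samples were not analysed here. All libraries come from the same cell line, and nothing in the labels says that they came from separate cultures, so every p-value reflects only the spread among them, and that spread may be technical. The peak lists hold no expression values, so the labelled cell type was not checked against marker genes.

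Chemokines are small secreted proteins that draw leukocytes along gradients, and they act through G protein-coupled receptors. Most of them lie in clusters of related genes made by duplication, and so do the interleukin-1 cytokines, which start and restrain fever and inflammation. Monocytes and granulocytes, the cells that myeloid leukaemia resembles, are major sources of both families. H3K27me3 is written by the Polycomb complex PRC2 and lies over genes that are kept silent; in mammals PRC2 gathers at untranscribed promoters that are rich in the dinucleotide CpG, and it spreads from there into broad domains.

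In the RefSeq gene table the order from low to high positions in the first CXCL group is CXCL8, CXCL6, PF4V1, CXCL1, PF4, PPBP, CXCL5, CXCL3 and CXCL2. CXCL8, CXCL6, CXCL1, CXCL5, CXCL3 and CXCL2 encode neutrophil attractants, and PF4 and PPBP encode chemokines stored in platelets. The second CXCL group is CXCL9, CXCL10 and CXCL11, interferon-induced ligands of CXCR3, a chemokine receptor on T cells. The first CCL group is CCL2, CCL7, CCL11, CCL8, CCL13 and CCL1, among which CCL2, CCL7, CCL8 and CCL13 encode monocyte attractants and CCL11 an eosinophil attractant. The second CCL group runs from CCL5 over CCL16, CCL14, CCL15, CCL23, CCL18, CCL3 and CCL4 to the duplicated copies CCL3L3 and CCL4L2. The IL1 order is IL1A, IL1B, IL37, IL36G, IL36A, IL36B, IL36RN, IL1F10 and IL1RN. IL1A and IL1B encode the fever-inducing cytokines, IL1RN their receptor antagonist, IL36G, IL36A and IL36B the agonists of a related receptor in skin, and IL36RN the antagonist of that receptor. That table is on GRCh38.p14 and the peaks are on GRCh37, so genes are given by their order alone and no window was assigned to a gene.

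The promoters of the clusters were mostly poor in CpG, the dinucleotide named above. RefSeq promoters of GRCh38.p14 (250 bases before to 50 after the start) were matched for 28 of the 39 listed genes: 11 of 12 CXCL genes, 9 of 18 CCL genes and 8 of 9 IL1 genes. The 250 bases before the start are printed for the CXCL promoter with most CpG, for a promoter of the CXCR3 ligands, and for a CCL and an IL1 family gene. Each runs 5′ to 3′ in the direction of its gene, and capitals mark CpG.
CXCL3 (chr4:74038690-74038939, minus strand): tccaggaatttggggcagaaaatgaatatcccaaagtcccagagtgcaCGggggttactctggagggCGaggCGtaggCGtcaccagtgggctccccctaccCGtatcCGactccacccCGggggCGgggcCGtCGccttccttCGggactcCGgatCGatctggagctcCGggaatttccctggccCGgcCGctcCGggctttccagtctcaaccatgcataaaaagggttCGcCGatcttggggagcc
CXCL10 (chr4:76023498-76023747, minus strand): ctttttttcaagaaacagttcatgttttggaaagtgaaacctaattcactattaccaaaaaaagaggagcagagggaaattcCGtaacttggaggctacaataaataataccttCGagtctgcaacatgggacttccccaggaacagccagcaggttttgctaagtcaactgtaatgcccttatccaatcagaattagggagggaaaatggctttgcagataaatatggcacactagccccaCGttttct
CCL7 (chr17:34269971-34270220, plus strand): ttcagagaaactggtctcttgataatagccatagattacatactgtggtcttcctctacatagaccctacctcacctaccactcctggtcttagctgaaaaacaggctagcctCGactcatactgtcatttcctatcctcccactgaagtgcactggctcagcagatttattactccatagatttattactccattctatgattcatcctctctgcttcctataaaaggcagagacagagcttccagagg
IL36G (chr2:112977756-112978005, plus strand): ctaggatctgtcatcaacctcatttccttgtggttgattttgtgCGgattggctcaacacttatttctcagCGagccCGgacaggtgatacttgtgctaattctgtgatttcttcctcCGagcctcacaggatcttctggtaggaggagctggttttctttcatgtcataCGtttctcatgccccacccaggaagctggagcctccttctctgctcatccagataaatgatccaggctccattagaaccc
These positions are on GRCh38.p14 and do not compare with those of the peaks. The printed part held 19 CpG for CXCL3, 3 for CXCL10, 1 for CCL7 and 5 for IL36G. Over the full 300 bases the median was 5 CpG for the CXCL promoters (range 0 to 24), 3 for the CCL promoters (1 to 4) and 2 for the IL1 promoters (0 to 8), against 14 for all 27305 promoters. CpG-rich promoters within the clusters were those of CXCL3 with 24 and of CXCL1 and CXCL2 with 22 each, and those of the CXCR3 ligands CXCL9 and CXCL11 had 0. The TATAAA box, on either strand, was found in 8 of 9 CCL promoters, 5 of 11 CXCL promoters and 3 of 8 IL1 promoters, against 12% of all promoters. The pattern GGG, any 5 bases, CC, which includes many binding sites of the inflammatory factor NF-kappaB, was found on either strand in 9 of 11 CXCL, 3 of 9 CCL and 5 of 8 IL1 promoters, against 58.0% of all. The pattern GAAA, any 2 bases, GAAA, the core of interferon-response elements, was found on either strand in CXCL9 and CXCL10 alone among the 28 promoters and in 3.65% of all. A match of letters is not a binding site. Among 11 receptor genes of these ligands, 10 promoters were matched, with a median of 2.5 CpG and a range from 1 (CXCR3 and IL1R2) to 36 (IL1RAP).

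Peaks covered a smaller share of the CXCL intervals, and a larger share of the CCL and IL1 intervals, than of the genome at large. The covered share is the percentage of bases of an interval that lie inside any deposited peak of a library. Over all 330 windows it was 8.97% in DMSO 1, 9.11% in AC220 1, 23.6% in DMSO 2 and 21% in AC220 2. DMSO 1 and AC220 1 are called set 1, and DMSO 2 and AC220 2 set 2, because the lists of set 2 cover 2.55 times (DMSO) and 2.59 times (AC220) as much of chromosomes 1 to 22 and X as those of set 1, and the values are therefore given within sets as well. The genome-wide shares were 7.63% in DMSO 1, 6.32% in AC220 1, 19.4% in DMSO 2 and 16.3% in AC220 2. For the CXCL cluster the share was 2.44% in DMSO 1, 1.5% in AC220 1, 14.2% in DMSO 2 and 9.49% in AC220 2, which is below the genome in all 4 libraries. That share includes the 30 windows of CXCL interval 2, which were at 0 in every library. CXCL interval 1 alone had 19% in DMSO 2, close to the genome. With DMSO first, the CCL cluster had 14.1% and 14.2% in set 1, and 26.2% and 25.5% in set 2. The IL1 cluster had 10.5% and 12.3% in set 1, and 33.3% and 31.2% in set 2. With all peaks kept, CCL and IL1 lay above the genome in every library, though for IL1 this depended on the peak filter. Their order depended on the set, with CCL higher in set 1 and IL1 higher in set 2.

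Clusters were compared within each library. CXCL was lower than CCL in 4 of 4 libraries, by 13.1 ± 1.98 percentage points (SD, n = 4), and lower than IL1 in 4 of 4, by 14.9 ± 6.53 points. An exact sign-flip permutation test over the 4 libraries, two-sided, gave the smallest p that 4 libraries allow for each (2 of 16 flips), and its Benjamini-Hochberg adjusted value over the 3 pairs was 0.188. As whole clusters, CXCL was below CCL in 4 of 4 libraries under every peak filter tried as well. By interval this did not always hold. CCL interval 1 was at 0 in AC220 1 when only peaks with a -log10 q of at least 2 were kept, against 0.833% for CXCL interval 1. With all lists trimmed to the covered length of the shortest it was at 0 in DMSO 2 and AC220 2, against 2.48% and 3.49%. The place of the CXCL cluster against IL1 depended on the filter too. CXCL was above IL1 in DMSO 1 with the stricter q (0.764% against 0.0748%). It was also above IL1 in DMSO 2 (1.86% against 0) and AC220 2 (2.62% against 0.34%) with all lists trimmed to the shortest. CCL minus IL1 averaged -1.84 ± 5.36 points (exact sign-flip p = 0.5, adjusted 0.5), with 2 libraries on each side of 0.

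**Figure D1:**
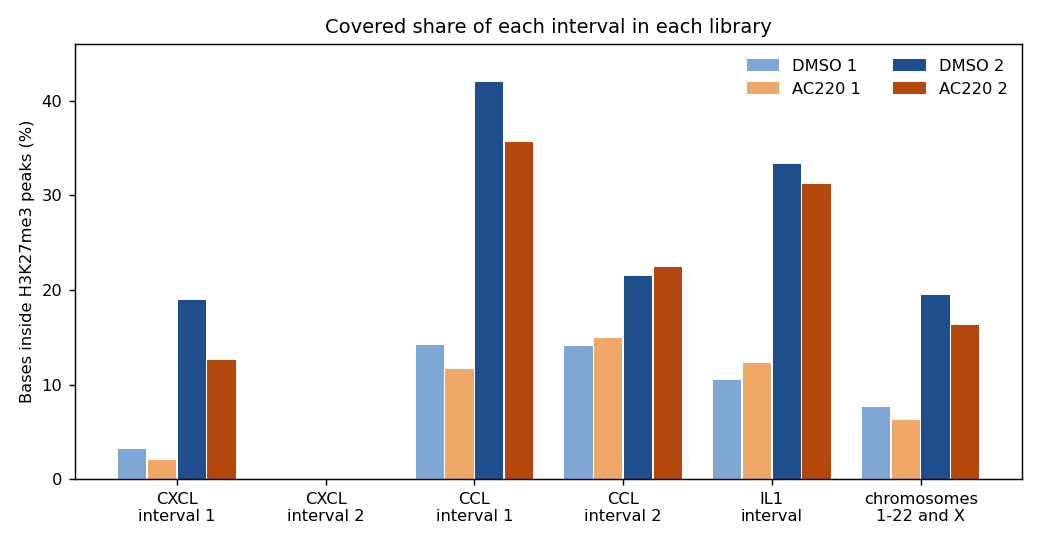
Percentage of bases inside H3K27me3 peaks (vertical axis) for the 5 intervals and for chromosomes 1 to 22 and X, with 1 bar for each library and no error bars. CXCL interval 2 has no bar because its share is 0 in all 4 libraries, and CCL interval 1 reaches 42% in DMSO 2 and 35.6% in AC220 2.

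The interval of CXCL9, CXCL10 and CXCL11 held no H3K27me3 peak in any library. All 30 of its windows were at 0 under DMSO and under AC220. Across the genome 64.6% of windows have no peak in any library, so an empty window by itself is common. The gap in the lists around this interval was wider than the interval. It ran 369 kb in DMSO 1, 359 kb in AC220 1, 357 kb in DMSO 2 and 352 kb in AC220 2 from the last peak before it to the first peak after it. With this mark absent from the lists on both sides, AC220 and DMSO could not be compared there. The depth of the libraries is unknown, so a level of the mark below the peak threshold was not detectable.

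CXCL interval 1, of the neutrophil and platelet chemokines, was covered less than the genome in each library, by little in DMSO 2. In each library most of its covered bases lay between 74800001 and 74950000. Its shares were 3.26% in DMSO 1, 2% in AC220 1, 19% in DMSO 2 and 12.6% in AC220 2. The genome-wide shares, in the same order, were 7.63%, 6.32%, 19.4% and 16.3%. Windows without a peak in any library were 48 of 90 (53.3%), against 64.6% genome-wide. The first 80 kb, from 74550001 to 74630000, were at 0 in every library. Between 74850001 and 74900000 the share reached 10.7% and 2.95% in set 1 (DMSO, then AC220), and 62.0% and 30.6% in set 2. The 50 kb before that had 8.47% and 2.32% in set 1, with 43.5% and 38.1% in set 2, and in the 50 kb after it 10.1% and 7.07%, and 23.8% and 20.8%. In these 3 blocks AC220 was below DMSO within both sets, and elsewhere it was not always so. The block from 74600001 to 74650000 had 0 in DMSO 1 and 3.56% in AC220 1, more than AC220 1 had in the 50 kb from 74800001 or from 74850001, with 6.02% and 3.39% in set 2. From 74650001 to 74700000 set 1 was at 0, and set 2 had 7.21% in DMSO 2 and 9.99% in AC220 2. In AC220 1 the next blocks had 1.26% and 0.854%, where DMSO 1 was at 0. No window was covered over at least 50% in all 4 libraries. The 2 longest runs covered to that degree in set 2 and not in set 1 were 10 kb each, from 74805001 to 74815000 (93.4% in DMSO 2 and 72% in AC220 2) and from 74845001 to 74855000 (65.5% and 55.9%). In AC220 1 both were at 0, and in DMSO 1 at 7.66% and 6.87%.

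A single short stretch of CXCL interval 1 stood out by peak strength in all 4 libraries. The authors give a fold enrichment for each peak, over a background that the sources used here do not name. The peak with the highest fold of the cluster lay in the same place in each list, and the 4 peaks shared 3536 bp from 74902833 to 74906368. It was 3.66-fold in DMSO 1 (74901817 to 74906397) and 3.66-fold in AC220 1 (74902833 to 74906368). In set 2 it was 3.62-fold in DMSO 2 (74901148 to 74912291) and 3.35-fold in AC220 2 (74901201 to 74910167). Within their own lists these peaks ranked at the 98.2, 99.4, 99.5 and 99.5 percentile of fold, in the same order. Peaks of the cluster as a whole had a median percentile of fold of 22.7 in DMSO 1, 16.6 in AC220 1, 49.9 in DMSO 2 and 38.4 in AC220 2 over all 11, 8, 26 and 27 peaks. The widest peak of the cluster in DMSO 2 lay elsewhere, 13.8 kb from 74852993 to 74866825, and in the other 3 libraries the strongest peak was also the widest.

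Both CCL intervals were covered, and they differed in form. CCL interval 1, with the monocyte attractants, had shares of 14.2% in DMSO 1, 11.7% in AC220 1, 42% in DMSO 2 and 35.6% in AC220 2. No window of it was covered over at least 50% in all 4 libraries, and 9 of 30 were so covered in both libraries of set 2 alone, against 7.07% of windows genome-wide. Its first 50 kb had at most 4.52% covered in any library, and from 32650001 to 32700000 the share was 22.7% in DMSO 1, 15.8% in AC220 1, 63.0% in DMSO 2 and 54.7% in AC220 2. The longest runs covered in set 2 alone were 32650001 to 32665000 (24.3% in DMSO 1, 27.4% in AC220 1, 94.6% in DMSO 2 and 77.8% in AC220 2) and 32670001 to 32685000 (24.0%, 11.2%, 82.2% and 68.8%). Peaks here were many and short in AC220 1, where 20 peaks had a median width of 738 bp, and the widest peak was 22 kb in DMSO 2.

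CCL interval 2, for the group from CCL5 to the duplicated CCL3 and CCL4 copies, held the longest run of windows covered in every library. Its shares were 14.1% in DMSO 1, 14.9% in AC220 1, 21.5% in DMSO 2 and 22.4% in AC220 2, so set 2 exceeded set 1 1.53 times (DMSO) and 1.5 times (AC220). The first 125 kb, to 34275000, were at 0 in every library, and so were the 50 kb from 34330001 to 34380000. In the gene order CCL5 lies first. The most covered 50 kb block ran from 34450001 to 34500000, where the share was 62.0% in DMSO 1, 66.6% in AC220 1, 83.1% in DMSO 2 and 77.1% in AC220 2. The longest run covered over at least 50% in all 4 libraries was 35 kb, from 34470001 to 34505000, at 76.0% in DMSO 1, 74.8% in AC220 1, 91.5% in DMSO 2 and 85.2% in AC220 2. A second covered block lay from 34550001 to 34600000, at 40.6% and 39.4% in set 1 and 47.4% and 57.9% in set 2. Of the 15 windows of the clusters covered over at least 50% in all 4 libraries, 12 lay in this interval. They made up 12% of its windows, against 3.83% genome-wide, and the other 3 lay in the IL1 interval. The peak with the highest fold of the cluster was again at the same place in all lists. The 4 peaks shared 645 bp from 34611871 to 34612515. Their folds were 3.96 in DMSO 1, 3.69 in AC220 1, 2.92 in DMSO 2 and 2.95 in AC220 2. These were at the 97.2 to 99.4 percentile of fold within each list. This peak also had the highest -log10 q of the cluster, except in AC220 2, where it had 4.33 and another peak 6.57. The widest peak was 33.9 kb in DMSO 2 (34459926 to 34493872), 15.6 kb in AC220 2 (34459807 to 34475361) and 11.5 kb in AC220 1 (34460048 to 34471534), starting at nearly the same place. In DMSO 1 the widest peak was 8.29 kb (34437988 to 34446279). CCL3L3 and CCL4L2 are near-identical copies of CCL3 and CCL4 and vary in number between genomes, and the sources used here do not give how reads matching several copies were treated. The part of copy number in these values was not tested.

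The IL1 interval held a broad domain between empty ends. Its first 150 kb had at most 2.83% covered in any 50 kb block of any library, and the 70 kb from 113540001 to 113610000 were at 0 in every library. At the other end the 55 kb from 113845001 to 113900000 were at 0 in every library. In the gene order IL1A and IL1B stand first and IL1RN last. Between these ends coverage rose to 21.7% in DMSO 1, 38.2% in AC220 1, 77.1% in DMSO 2 and 73.1% in AC220 2 from 113700001 to 113750000. From 113750001 to 113800000 it was 35.2% in DMSO 1, 38.1% in AC220 1, 87.3% in DMSO 2 and 79.7% in AC220 2. The genes in the middle of the order are IL37, the IL36 agonists and antagonist and IL1F10. The upper edge was at nearly the same place in 3 libraries, with the last covered base at 113832546 in DMSO 1, 113833977 in AC220 1 and 113834729 in DMSO 2, and at 113841335 in AC220 2. The longest run covered over at least 50% in all 4 libraries was 10 kb, from 113780001 to 113790000, at 90.5% in DMSO 1, 76.4% in AC220 1 and 100% in both libraries of set 2. The longest run so covered in set 2 alone was 20 kb, from 113815001 to 113835000, at 76.0% in DMSO 2 and 91.4% in AC220 2, against 18.9% in DMSO 1 and 27.1% in AC220 1. Of the 80 windows, 17 (21.25%) were covered over at least 50% in set 2 alone, against 7.07% genome-wide.

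The IL1 interval held wide peaks in set 2, and its peaks were close to their lists in median significance. The widest was 33.5 kb in DMSO 2 (113767200 to 113800682) and 22.5 kb in AC220 2 (113779059 to 113801555), while no peak of DMSO 1 or AC220 1 exceeded 6.95 kb and 7.25 kb. Peaks of at least 10 kb were 2 of 21 in DMSO 2 and 3 of 33 in AC220 2. Over the whole lists they were 14652 of 117556 and 10683 of 139642, so peaks of this width are not particular to the interval. The median -log10 q of the IL1 peaks was 1.43 in DMSO 1, 1.19 in AC220 1, 1.65 in DMSO 2 and 1.70 in AC220 2, against 1.55, 1.32, 1.72 and 1.65 over each whole list. When only peaks with a -log10 q of at least 2 were kept, the covered share of the interval fell to 0.0748% in DMSO 1 and 0.828% in AC220 1, below the genome-wide 2.61% and 1.92% of the same filter. In set 2 it was 19.7% in DMSO 2 and 14.8% in AC220 2, still above the genome-wide 13.9% and 10.5%. CCL interval 2 kept 7.45% in DMSO 1, 9.76% in AC220 1, 19.2% in DMSO 2 and 19.6% in AC220 2 under that filter. With all lists trimmed to the covered length of the shortest, the genome-wide share was 6.32% in each library. The IL1 interval then lay below it in set 2 (0 in DMSO 2 and 0.34% in AC220 2). In set 1 it lay above (6.81% in DMSO 1 and 12.3% in AC220 1). The IL1 peaks of highest fold did not share a place in the 4 lists.

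**Figure D2:**
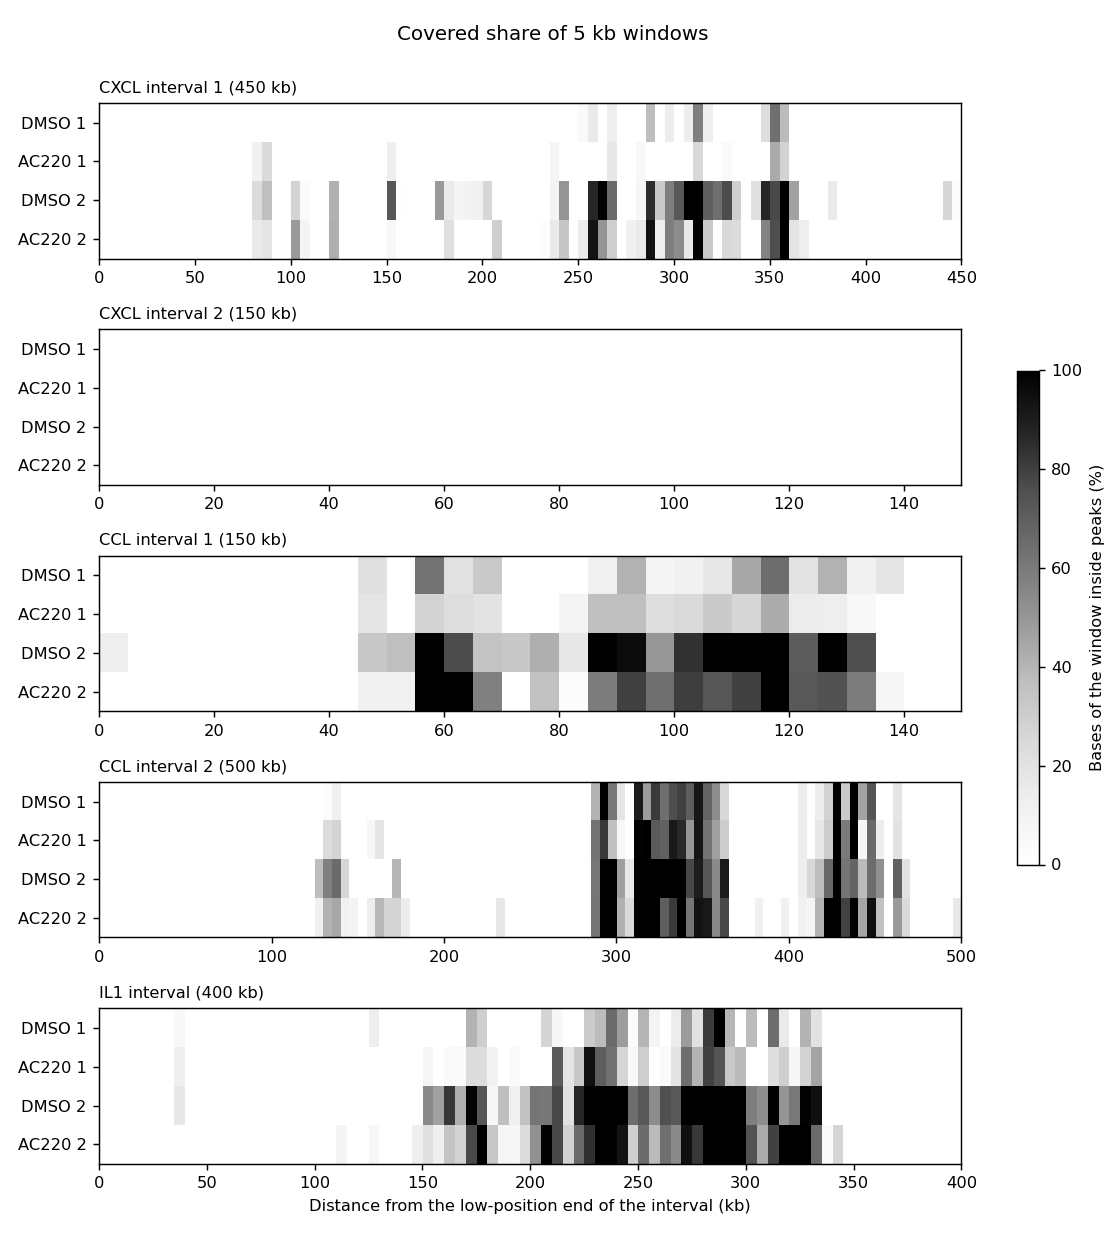
Covered share of each 5 kb window (grey scale, 0% white to 100% black) along the 5 intervals, with the distance from the low-position end in kb on the horizontal axis and 1 row for each library. CXCL interval 2 is white throughout, CCL interval 2 has dark blocks near 300 kb and beyond 400 kb in all 4 rows, and the IL1 domain lies between white ends and is darker in the rows of set 2.

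The clusters differed in how many covered bases the libraries shared. Of the 198 kb covered in any library in the CCL cluster, 32.2% were covered in all 4, against 13.3% of 155 kb in the IL1 cluster, 4.60% of 98.4 kb in the CXCL cluster and 19.0% genome-wide. In the CXCL cluster 38.6% of the covered bases were in DMSO 2 alone and 12.3% in AC220 2 alone, against 21.3% and 8.76% genome-wide. Bases in both libraries of set 2 and neither of set 1 made up 29.7% in CXCL, 20.9% in CCL, 28.2% in IL1 and 25.9% genome-wide. Bases covered in both DMSO libraries and neither AC220 library came to 1.01 kb in CXCL, 1.73 kb in CCL and 0.690 kb in IL1. Bases covered in both AC220 libraries and neither DMSO library came to 0 in CXCL, 1.96 kb in CCL and 2.08 kb in IL1. These bases made up 0.760% (DMSO) and 0.895% (AC220) of what was covered in any library of the clusters, against 1.76% and 0.522% genome-wide.

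**Figure D3:**
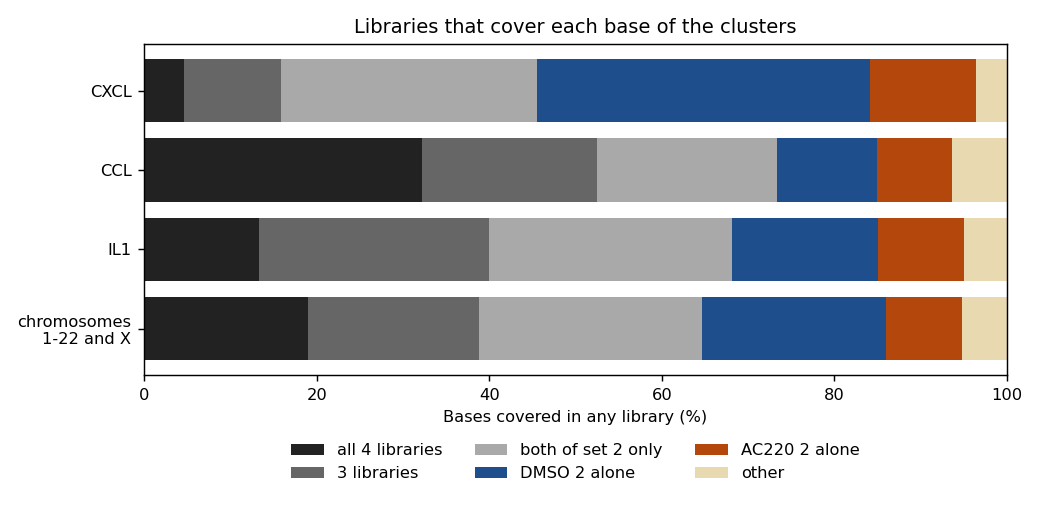
Percentage of the bases covered in any library (horizontal axis) that were covered in all 4 libraries, in 3, in both libraries of set 2 only, in DMSO 2 alone, in AC220 2 alone or in another combination, for the 3 clusters and chromosomes 1 to 22 and X. The darkest segment, bases covered in all 4, is 32.2% for CCL and 4.60% for CXCL.

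The question of the study design is whether 24 h of AC220 altered the mark, and the clusters did not move together. Genome-wide, coverage with AC220 was 17.2% lower in set 1 and 15.9% lower in set 2, a log2 ratio of AC220 over DMSO of -0.27 and -0.25. CXCL interval 1 was 38.6% lower in set 1 and 33.3% lower in set 2, log2 ratios of -0.70 and -0.58, with AC220 below DMSO in both sets. CCL interval 1 was 17.5% and 15.2% lower, log2 ratios of -0.28 and -0.24, close to the genome with all peaks kept, though this depended on the peak filter. CCL interval 2 was 6% and 4.27% higher, log2 ratios of 0.08 and 0.06. The IL1 interval was 17.8% higher in set 1 and 6.39% lower in set 2, log2 ratios of 0.24 and -0.10, with no common direction.

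**Figure D4:**
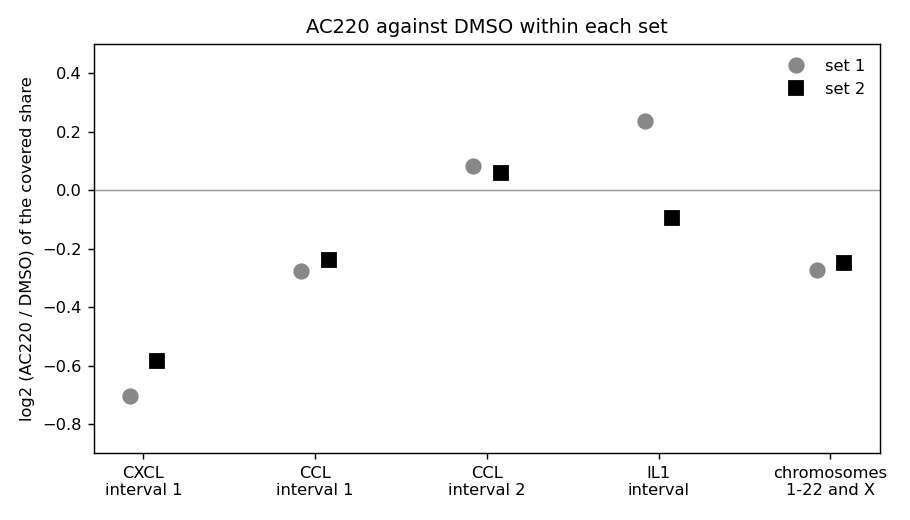
The log2 ratio of the covered share with AC220 over that with DMSO (vertical axis) within set 1 (circles) and set 2 (squares), for the intervals with peaks and for chromosomes 1 to 22 and X; single values without error bars. CXCL interval 1 lies at -0.70 and -0.58, CCL interval 2 at 0.08 and 0.06, and the IL1 interval on both sides of 0.

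Pooled over sets, none of these differences exceeded the spread between libraries of a treatment. That spread is the gap between set 1 and set 2, whose lists differ in covered length, and the permutation test takes no account of the sets. The covered share of the CXCL cluster with DMSO was 8.33% ± 8.33, and with AC220 it was 5.49% ± 5.65 (SD, n = 2; two-sided exact permutation p = 0.667). For the CCL cluster it was 20.2% ± 8.58 and 19.8% ± 7.99 (SD, n = 2; exact permutation p = 1), and for the IL1 cluster 21.9% ± 16.2 and 21.75% ± 13.4 (SD, n = 2; exact permutation p = 1). By interval, CCL interval 1 had 28.1% ± 19.7 and 23.7% ± 16.9, and CCL interval 2 had 17.8% ± 5.26 and 18.7% ± 5.31 (SD, n = 2; exact permutation p = 0.667 for each). The adjusted p was 1 for all 7 units tested, and with 2 libraries against 2 this test cannot go below 0.333. The difference between clusters in the treatment difference was -2.50 percentage points for CXCL minus CCL (-1.02 in set 1 and -3.98 in set 2; exact permutation p = 0.333, the smallest possible) and -2.71 for CXCL minus IL1 (-2.80 and -2.61; exact permutation p = 0.667). It was -0.21 for CCL minus IL1 (-1.78 and 1.36; exact permutation p = 1), and the adjusted p was 1 for all 3 pairs. The CXCL minus CCL value stayed negative under every alternative and with any library left out. The sign of CXCL minus IL1 changed with the libraries kept, and that of CCL minus IL1 with the libraries and the peak filter. For the single clusters, the sign of the pooled treatment difference changed with the libraries kept and with list trimming. Without DMSO 2 or without AC220 1 the sets are unbalanced, with set 2 weighing more on the AC220 side. The pooled difference then turned positive for every cluster (3.05 and 1.15 points for CXCL, 5.73 and 5.31 for CCL, 11.3 and 9.30 for IL1). When peaks of low significance were dropped from a DMSO list until it covered no more of the genome than the AC220 list of its set, CXCL interval 1 was 3.62% lower with AC220 in set 1 (2.08% against 2%) and 18.2% lower in set 2 (15.5% against 12.6%). With all lists trimmed to the shortest it was higher with AC220 in set 2 (2.48% against 3.49%). The other filters kept CXCL interval 1 lower with AC220 in both sets. It was 18.2% and 57.6% lower with a -log10 q of at least 2, and 38.6% and 32.2% lower with gaps of up to 1 kb filled. With the DMSO lists alone trimmed, the IL1 interval was higher with AC220 in both sets (6.81% against 12.3% and 23.1% against 31.2%). CCL interval 1 stayed lower with AC220 under that filter (12.9% against 11.7% and 37% against 35.6%). It was also lower in both sets with a -log10 q of at least 2 (1.95% against 0 and 34.2% against 11.8%). With gaps of up to 1 kb filled it was higher with AC220 in set 1 (14.2% against 14.7%) and lower in set 2 (42% against 37.6%). With all lists trimmed to the shortest, both set 2 libraries were at 0 there.

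No single window of the clusters separated the treatments by 25 percentage points. The call required both DMSO libraries to lie 25 percentage points or more above both AC220 libraries (lower), or as far below them (higher). A lower call thus needs DMSO 1 to exceed AC220 2 by that much, and a higher call AC220 1 to exceed DMSO 2. Lists of set 2 cover more, so the rule is strict in both directions. Of the 330 windows 0 were lower and 0 were higher, against 0.0883% and 0.0171% of windows genome-wide, shares at which 330 windows would hold less than 1. Without DMSO 1, 24 windows were lower and 1 higher, against 7.23% and 0.0285% genome-wide, and without AC220 2, 9 were lower, against 3.59%. Without AC220 1, 10 were higher, against 1.73%, and without DMSO 2, 8 were higher, against 1.41%. With a library left out the sets are unbalanced between treatments, and set 2 lists cover more, so these counts mix set with treatment. Within both sets taken singly, 1 of 330 windows was lower by 25 points and 0 were higher, against 0.724% and 0.105% genome-wide. The largest separation, 18.4 points, was in CCL interval 2 from 34310001 to 34315000, which was at 0 in both DMSO libraries, at 18.4% in AC220 1 and at 38.7% in AC220 2. It was the only window separated by at least 10 points, a degree that 0.156% of windows genome-wide reach in this direction and 0.568% in the other. The window before it was at 0 in both DMSO libraries too, and at 7.20% and 13.9% with AC220. The largest separation with DMSO higher was 8.66 points, from 34490001 to 34495000 (70.3% in DMSO 1, 77.4% in DMSO 2, 50% in AC220 1 and 61.6% in AC220 2).

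Within sets, single windows went in opposite directions more often than in the same one. Of the 148 windows of the clusters with a peak in any library, 17 (11.5%) were lower with AC220 in both sets, against 19.5% genome-wide. Another 16 (10.8%) were higher in both sets, against 6.99%, and 46 (31.1%) went in opposite directions, against 20%. In CXCL interval 1, 4 of 42 were lower in both sets and 2 higher. In CCL interval 1, 5 of 20 were lower and 2 higher, in CCL interval 2, 3 of 43 were lower and 7 higher, and in the IL1 interval 5 of 43 were lower and 5 higher. Across the 330 windows the AC220 minus DMSO differences of the sets had a Pearson correlation of -0.06, while covered shares correlated at 0.87 between DMSO 1 and AC220 1 and at 0.91 between DMSO 2 and AC220 2. Neighbouring windows share peaks, and these coefficients are descriptions.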

How the data were processed

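The 4 immunoprecipitated H3K27me3 libraries of MOLM14 cells were analysed through their deposited lists of broad peaks. The submitters' processing notes list MACS2 2.1 and BWA 0.7.10-r789 with no settings; the sources used here do not say whether the input samples or the spike-in were used in peak calling. Each library has its own list, so peaks were called per library. The lists hold peak positions, a fold enrichment, and a p-value and q-value as -log10, per the deposited column order. The background of the fold is not named in the sources used here. The deposited score is 10 times the -log10 q, rounded down, in over 99.99% of peaks. The smallest -log10 q was 1.00. DMSO 1 holds 104980 peaks on 24 chromosomes (232 Mb), DMSO 2 117556 (591 Mb), AC220 1 104566 (192 Mb) and AC220 2 139642 (497 Mb). Read depth is unknown, and the number of libraries limits the precision.

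The build is not stated; contig names and peak ends fit GRCh37 (the highest peak end on chromosome 1, 249236554, lies within its GRCh37 length). Covered shares were computed per 5 kb window, interval and cluster in Python 3.11.15 (pandas 2.3.3, numpy 2.4.6; figures in matplotlib 3.10.9), and treatments were compared by an exact permutation test over 6 assignments. The calling rule was run on simulated peak lists with windows planted as covered with DMSO only or with AC220 only, and no difference between sets. That run checks the computation and does not tell how the rule behaves in these data. Stretches were named by rule: the 2 longest runs per cluster covered at least 50% in all 4 libraries, covered in set 2 only, or at 0 in all, every called window, and the widest peak per list. Edges, blocks of 50 kb, strongest peaks and base combinations were chosen for naming afterwards. Members, lists and tests were chosen with earlier results of these data known. The planned covered share around gene starts was not run, because the gene table is on GRCh38.p14. Alternatives were list trimming, a stricter q, filled gaps, other windows and separations, left-out libraries and a block on the replicate number.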

Additional observations from a re-analysis of the deposited data

How the results depend on the processing

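Trimming drops the peaks of lowest significance, so list length and peak significance changed together. The covered share of a cluster, as AC220 minus DMSO in percentage points, changed with the peak filter. After trimming DMSO lists, by p, to the covered length of the AC220 lists it became 1.67 for all windows, 1.04 for CCL and 6.81 for IL1, and with all lists trimmed to the shortest 2.44 for all, 0.35 for CXCL, 4.07 for CCL and 2.92 for IL1. With gaps of up to 1 kb filled it became 0.35 for CCL and 0.20 for IL1. CXCL minus CCL averaged -13.4 to -10.3 points, negative in 4 of 4 libraries under each of 4 peak filters. CXCL minus IL1 averaged -15.2 to -2.98, negative in 3 of 4 libraries with the stricter q and in 2 of 4 with equal lists, while CCL minus IL1 turned to 4.69 with a -log10 q of at least 2, to 0.94 with DMSO trimmed and to 7.33 with all lists at equal length. The treatment difference of CCL minus IL1 turned to 0.29 with the stricter q, 1.15 with equal lists and 0.15 with filled gaps; the cause was not tested. Window calls were 1 lower with the stricter q (chromosome 17, 32640001 to 32645000; 0.0858% genome-wide), 1 higher with DMSO trimmed (chromosome 2, 113750001 to 113755000; 0.163%) and 1 higher with equal lists (chromosome 17, 34580001 to 34585000; 0.299%). They were 1 higher at 10 points (0.156%), and 1 lower and 1 higher with 2 kb windows (0.416% and 0.107%). Without single libraries the sets are unbalanced: the treatment difference ran from -8.51 (without DMSO 1) to 6.10 (without DMSO 2) for all windows, -8.73 to 3.05 for CXCL, -6.41 to 5.73 for CCL and -11.6 to 11.3 for IL1, by the same removals. The mean difference in covered share ran from -13.5 to -12.1 for CXCL minus CCL, -17.2 to -12.6 for CXCL minus IL1 and -3.66 to -0.086 for CCL minus IL1. Lower windows numbered 0 to 24 (24 without DMSO 1, 7.23% genome-wide) and higher windows 0 to 10 (10 without AC220 1, 1.73%). The difference in treatment difference ran from -4.15 to -0.84 for CXCL minus CCL, -8.25 to 2.84 for CXCL minus IL1 (positive without DMSO 1 or AC220 2) and -5.57 to 5.16 for CCL minus IL1. Replicate numbers are shared by the labels only. Deviations of same-numbered libraries from their group means correlated at 0.70 over all windows. With the replicate block the values were the same (exact sign-flip p of at least 0.5, the smallest 2 numbers allow), and 1 window was lower by 25 points within both sets, against 0.724% genome-wide: chromosome 17, 32675001 to 32680000, at 40.9% and 13.5% in set 1 and 100% and 74.8% in set 2.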

Other observations

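Flanks of the same length on either side of each interval were measured after the data had been seen. The stretch before CXCL interval 1 was covered more than the interval, at 7.59% in DMSO 1, 6.42% in AC220 1, 44.1% in DMSO 2 and 29.4% in AC220 2, and the stretch after it at 5.33%, 5.05%, 27.9% and 17.5%. The 150 kb after the interval of the CXCR3 ligands were at 0 in every library, and the 150 kb before it held 2.59% in DMSO 1, 2.42% in AC220 1, 11.7% in DMSO 2 and 9.73% in AC220 2. CCL interval 1 lay in a covered neighbourhood, with 24.2%, 24.5%, 62.4% and 56.7% before it in the same order. The 500 kb after CCL interval 2 held 28.2%, 24.5%, 42.0% and 42.2%, more than the interval in every library, and the 500 kb before it held 8.94%, 9.67%, 15.1% and 13.8%, less than the interval in every library. The IL1 interval was covered more than either of its flanks in all 4 libraries, with 9.71%, 9.76%, 21.7% and 19.6% before it and 4.43%, 4.70%, 9.17% and 11% after it.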
